A study of Mus musculus with 13 samples.

Results

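Ptges3, the mRNA that encodes P23 itself, and Pla2g12a, the mRNA of a secreted phospholipase A2 of group XIIA, are 2 of the 52 RNAs in the deposited table, and both were chosen by their Ensembl identifiers. Each was read across all 13 libraries of the experiment. P23 is a co-chaperone of HSP90 and is also an enzyme of the cytosol that makes the lipid mediator PGE2 from its endoperoxide precursor PGH2. Secreted phospholipases A2 cut the middle fatty acid from membrane phospholipids, and arachidonic acid released in this way is the substrate from which cyclooxygenases form PGH2. The group XIIA enzyme is known as an atypical member of that family with low activity on common phospholipids. In macrophages exposed to bacterial lipopolysaccharide (LPS), PGE2 is a well known lipid mediator that shapes cytokine release and fever.

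The libraries came from RAW 264.7, a mouse macrophage cell line transformed with Abelson leukaemia virus, so that all groups share 1 line. Cells were either untreated (0 h) or kept with 10 ng/ml of E. coli LPS for 2 h, then UV-crosslinked, and RNA was recovered from cytoplasmic extract with an antibody against P23 or a LUC antibody against luciferase, a protein these cells lack. The groups were P23 IP 0 h and LUC IP 0 h with 3 libraries each, P23 IP 2 h with 3, LUC IP 2 h with 2, and 1 input library at each time. The LUC IP group at 2 h lacks 1 library that the authors set aside as an apparent outlier. The sums of counts over the 52 RNAs ran from 3751 to 11866 in the IP libraries and were 24335 and 25437 in the inputs, and they are not library sizes. Values below are normalized counts, which correct the raw counts for depth by the factor the authors gave each whole library. Pim1, an LPS-induced kinase mRNA, went from 23.3 to 507 normalized counts between the inputs. None of 4 fibroblast or epithelial and 3 lymphocyte markers is in the table, which says nothing of the cells because the table holds selected RNAs only.

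In both P23 IP groups, replicates 2 and 3 did not differ beyond sampling noise over the table (chi-square p = 0.366 at 0 h and p = 0.374 at 2 h). Every other pair of libraries within an IP group differed (chi-square p of 0.0042 or less). Each pair of replicates 2 and 3 was therefore counted as 1 sample in group means, SD and n, although the labels speak of independent biological replicates. The test cannot show that the libraries of a pair are 1 sample. Fits are given with all 11 IP libraries, as planned, and then with each pair summed to 1 library.

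Ptges3 lies on chromosome 10 (GRCm38, 128058954 to 128077272, plus strand), and its listed RefSeq transcript has 8 exons and 1954 nt, with a 3′UTR of 1168 nt in the last exon. Pla2g12a lies on chromosome 3 (129878606 to 129895825, plus strand), and its listed transcript has 4 exons and 1561 nt, with a 3′UTR of 869 nt in the last exon. No other annotated gene overlaps either locus. The coding sequences span 160 and 192 codons before the stop.

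A motif search by the study returned a U/G-rich element in 3′UTRs of the enriched mRNAs, so U/G-only hexamers (6 consecutive bases, each T or G in DNA letters, on the transcript strand, overlapping ones counted separately) were located in both. For each 3′UTR the first of the 30-nt windows that held the most such hexamers is shown, followed by the densest window that does not overlap it, since here the mRNAs differ. Capitals mark bases inside a U/G-only hexamer.
Ptges3, chr10:128077058-128077087, + strand: GTTTGGTTTTTTTTTTTTTTTTGTTTTGTT
Ptges3, chr10:128076231-128076260, + strand: ttttcTTTTTTTTcTTTTTTTTTTTTTTTG
Pla2g12a, chr3:129895022-129895051, + strand: acagcctaatgttgccttaGTTTTGTGTTG
Pla2g12a, chr3:129895090-129895119, + strand: ttagaacctcaaagtgaaaaTGGTGGGGGG

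The first Ptges3 window consisted of U and G alone and held 25 hexamers, all that 30 nt allow. Of 24700605 windows of this length in 19272 mouse 3′UTRs of RefSeq (GRCm38.p6, the longest per gene), 0.0779% held as many, and 6.95% of the 3′UTRs had at least 1 such window. The second Ptges3 window, a run of U broken by C, held 14. Much of both Ptges3 windows is U alone rather than a mixture of U and G.

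Pla2g12a had no comparable stretch. Its densest window held 6 hexamers, a number reached by 3.35% of all windows and by 61.8% of the 3′UTRs. Over the whole 3′UTR, Ptges3 had 83 U/G-only hexamers (7.14 per 100 positions) and Pla2g12a had 31 (3.59 per 100 positions), and 4.59% and 33.9% of all 3′UTRs were at least as dense. With the longest RefSeq 3′UTR per gene, Ptges3 was 1 of 8 among 44 mRNAs of the table that shared the highest number in a window and Pla2g12a ranked 34, against a median of 14 hexamers in the table and 7 over all genes. These counts describe letters in a window and do not locate binding.

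**Figure D1:**
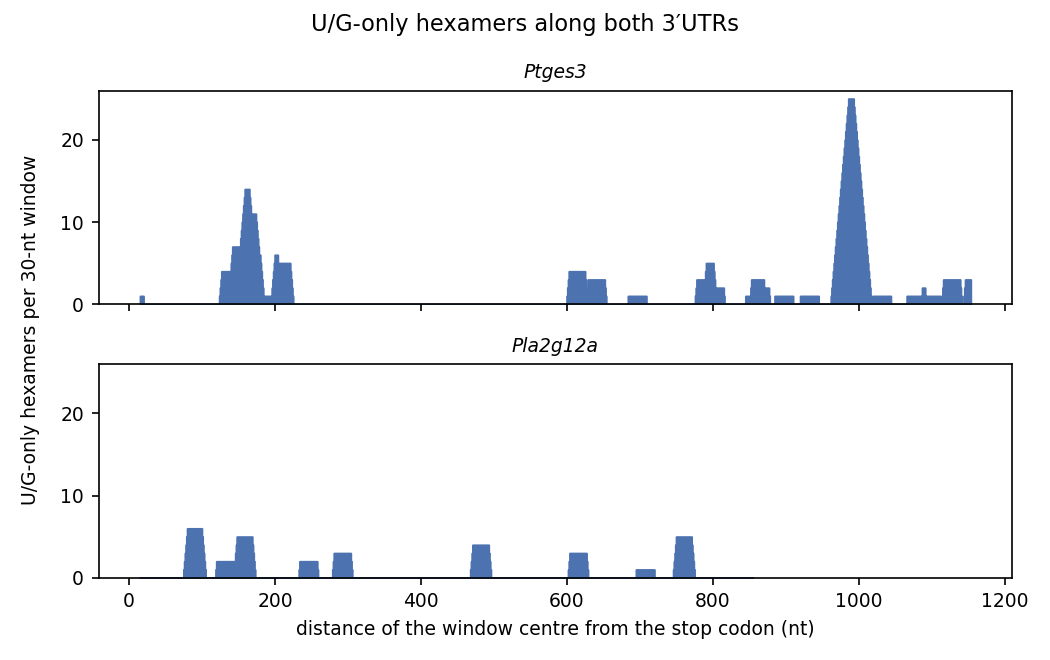
Number of U/G-only hexamers in each 30-nt window (vertical axis) against the distance of the window centre from the stop codon in nt (horizontal axis) for the listed 3′UTRs of Ptges3 (top) and Pla2g12a (bottom). Ptges3 reaches 25 near its 3′ end and 14 closer to the stop codon, while no window of Pla2g12a exceeds 6.

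The Ptges3 mRNA has a close copy in the genome, which bears on how its reads could be counted. Of its 1905 stretches of 50 bases, the length of 1 read, 1207 (63.4%) have an identical copy elsewhere on the mouse chromosomes, and 91.5% of the mRNA is covered by similar sequence at 4 other loci. The closest is the processed pseudogene Ptges3-ps (chromosome 6, 85843862 to 85845372) with up to 99.5% identity, and a second processed pseudogene, Gm11893, lies on chromosome 4. None of the 1512 stretches of Pla2g12a has an identical copy. The authors counted unique reads of pairs, so the Ptges3 count may omit read pairs shared with Ptges3-ps or hold some of its reads. The level of Ptges3 is uncertain to that extent in all libraries, and its part in the differences between groups was not tested.

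At 0 h, Ptges3 had 610.5, 449.9 and 452.8 normalized counts in the P23 IPs (raw counts of 452, 447 and 461) and 445.1, 301.5 and 350.2 in the LUC IPs (raw counts of 205, 233 and 337). All P23 libraries lay above all LUC libraries, but the lowest P23 library exceeded the highest LUC library by little. Pla2g12a had 113.5, 111.7 and 107.1 normalized counts in the P23 IPs (raw counts of 84, 111 and 109) and 89.0, 66.0 and 77.9 in the LUC IPs (raw counts of 41, 51 and 75). Here too the groups did not overlap, and the P23 libraries were closer to each other than the LUC libraries were. Among all RNAs of the table, 42 of 52 (80.8%) had P23 libraries above every LUC library at 0 h, so the lack of overlap does not set these mRNAs apart.

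With each near-identical pair counted once, the mean of Ptges3 was 530.9 ± 112.6 normalized counts in the P23 IPs (SD, n = 2) against 365.6 ± 73.0 in the LUC IPs (SD, n = 3). The mean of Pla2g12a was 111.4 ± 2.9 in the P23 IPs (SD, n = 2) against 77.7 ± 11.5 in the LUC IPs (SD, n = 3). The log2 fold change of P23 over LUC was 0.47 for Ptges3 (standard error 0.18, 95% interval 0.10 to 0.85, adjusted p = 0.018 from edgeR) and 0.53 for Pla2g12a (standard error 0.16, 95% interval 0.19 to 0.87, adjusted p = 0.0070 from edgeR) on the authors' size factors, but with libraries scaled to 1 common median of the 52 RNAs both values fell within 1 standard error of 0, at -0.07 (standard error 0.15) and -0.02 (standard error 0.15). That scaling takes out a shift shared by the 52 RNAs, which were chosen for being higher with P23 at 0 h. Values on it are relative to those RNAs and cannot show whether P23 held more of them than LUC. On the authors' size factors with the pairs summed to 1 library, the log2 fold changes were 0.54 (adjusted p = 0.029 from edgeR) and 0.53 (adjusted p = 0.017 from edgeR). All 52 RNAs (100%) were called higher with P23 at 0 h, and because the study chose the table on this contrast in these libraries, the calls of both mRNAs are no independent evidence of binding. The call of Ptges3 was lost without P23 IP 0 h replicate 1 (adjusted p = 0.10 from edgeR), LUC IP 0 h replicate 2 (adjusted p = 0.074 from edgeR) or LUC IP 0 h replicate 3 (adjusted p = 0.058 from edgeR). Pla2g12a kept its call when any 1 of the 6 libraries was left out, with adjusted p from edgeR of at most 0.041. For both mRNAs, leaving out 1 library of the near-identical P23 pair removes no separate sample. Without P23 IP 0 h replicate 1, only that pair, counted here as 1 sample, stands for P23.

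Both mRNAs stood low within the table at 0 h. By log2 fold change, Ptges3 ranked 50 of 52, between Slc25a44 (0.47), a mitochondrial carrier, and Bcl2l2 (0.47), an anti-apoptotic BCL2 relative, and Pla2g12a ranked 40, between Thra (0.55), a thyroid hormone receptor, and Rnf166 (0.53), a RING finger protein. These neighbours lay well within 1 standard error of the members. The median over the table was 0.66, so that both members lay below it.

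**Figure D2:**
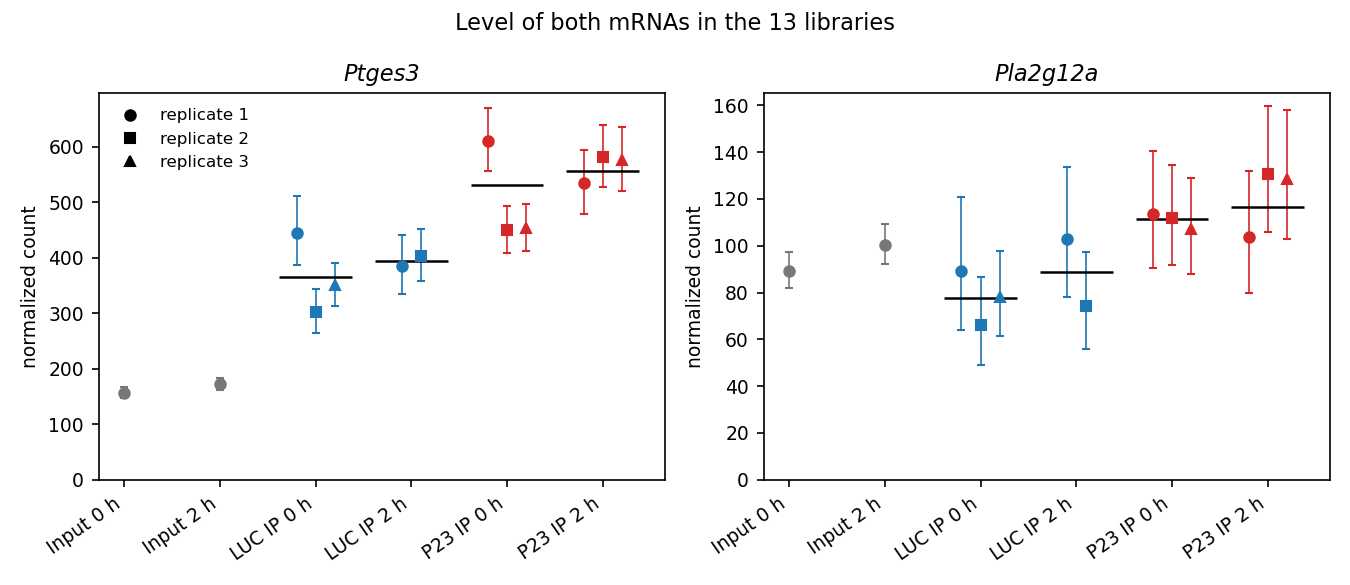
Normalized counts (vertical axis, from 0) of Ptges3 (left) and Pla2g12a (right) in each of the 13 libraries by group, with markers for the replicate number, 95% Poisson intervals for counting error, and a black line at the group mean with near-identical pairs counted once. P23 IPs (red) lie above LUC IPs (blue) at each time for both mRNAs on the authors' size factors. When libraries are set to an equal median over the table, the groups overlap at 0 h and at 2 h for both mRNAs. That scale takes out a shift shared by the selected RNAs. Ptges3 is lowest in the inputs (grey), while the inputs of Pla2g12a, at 89.3 and 100, lie among the IPs.

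At 2 h of LPS, Ptges3 had 533.8, 581.0 and 576.2 normalized counts in the P23 IPs (raw counts of 335, 427 and 395) and 385.1 and 402.5 in the LUC IPs (raw counts of 213 and 287). The groups did not overlap on the authors' size factors, but they did at an equal median over the table. Pla2g12a had 103.6, 130.6 and 128.4 normalized counts in the P23 IPs (raw counts of 65, 96 and 88) and 103.1 and 74.3 in the LUC IPs (raw counts of 57 and 53). Its groups did not overlap, but P23 IP 2 h replicate 1 and LUC IP 2 h replicate 1 were almost equal, and the 95% Poisson interval of each held the other. P23 libraries stood above every LUC library at 2 h for 33 of 52 RNAs (63.5%).

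The log2 fold change of P23 over LUC at 2 h was 0.52 for Ptges3 (standard error 0.20, 95% interval 0.09 to 0.94) and 0.47 for Pla2g12a (standard error 0.19, 95% interval 0.07 to 0.86), and neither passed the threshold (adjusted p = 0.074 from edgeR for both, 0.020 and 0.023 before adjustment). After scaling by TMM over the 52 RNAs, which takes out a shift shared by these RNAs, the values were 0.05 for Ptges3 and 0.00010 for Pla2g12a. With the pairs summed to 1 library they were 0.50 and 0.43 (adjusted p = 0.20 from edgeR for both). At this time 4 of the 52 RNAs (7.69%) were called higher with P23 and 1 (1.92%) lower, while 23 were higher at an unadjusted p below 0.05. Ptges3 passed when only the P23 and LUC groups of 2 h entered the fit (adjusted p = 0.025 from edgeR), whereas Pla2g12a did not (adjusted p = 0.059 from edgeR). Pla2g12a depended on single libraries, and where 1 LUC library is left out the other stands alone and is assumed to vary like the other groups. It had a log2 fold change of 0.23 without LUC IP 2 h replicate 2 (adjusted p = 0.48 from edgeR), 0.70 without LUC IP 2 h replicate 1 (adjusted p = 0.11 from edgeR) and 0.56 without P23 IP 2 h replicate 1 (adjusted p = 0.041 from edgeR).

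Ptges3 ranked 19 of 52 at 2 h, between Thra (0.52) and Ppia (0.50), the mRNA of cyclophilin A, and Pla2g12a ranked 23, between Kmt5a (0.49), a histone H4 methyltransferase, and Bcl2l2 (0.43). The median over the table was 0.40, below both members. Ranks were therefore higher than at 0 h, when both members lay below the median. The table was selected on its values at 0 h, and the part of that selection in the shift of ranks was not tested.

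The difference between both times was tested directly as the change of P23 over LUC from 0 h to 2 h. It was 0.05 on the log2 scale for Ptges3 (standard error 0.27, 95% interval -0.52 to 0.61, adjusted p = 0.97 from edgeR) and -0.06 for Pla2g12a (standard error 0.25, 95% interval -0.58 to 0.46, adjusted p = 0.97 from edgeR). The sign of these small values was not stable, being -0.04 for Ptges3 and -0.10 for Pla2g12a with the pairs summed to 1 library, and 0.24 and 0.13 with TMM over the 52 RNAs (adjusted p of at least 0.58 from edgeR). The median change over the table was -0.26, with 42 of 52 RNAs below 0, and 1 RNA (1.92%) was called lower. This change contains P23 over LUC at 0 h, the contrast on which the table was selected. The part of that selection in the median, in the RNAs below 0 and in the values of both members was not tested. The intervals of both members include that median, so neither mRNA was shown to differ from the rest of the table.

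**Figure D3:**
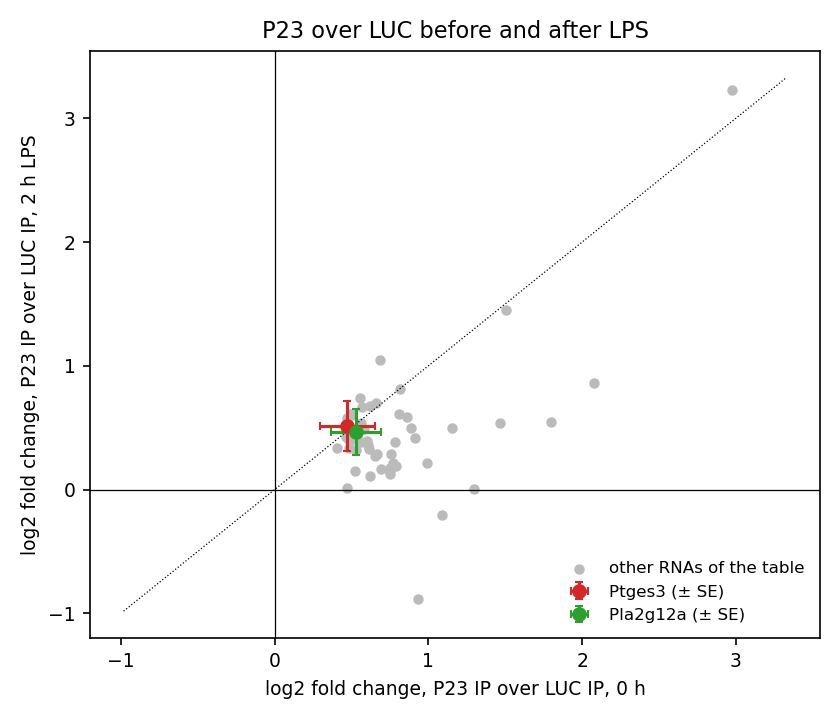
Log2 fold change of P23 IP over LUC IP at 0 h (horizontal axis) and at 2 h of LPS (vertical axis) for 51 RNAs of the table, leaving out 1 RNA with no count in the IPs of 2 h. Ptges3 (red) and Pla2g12a (green) are shown with standard errors and lie close to the dotted line of equal values. On the authors' size factors they are at 0.47 and 0.52 and at 0.53 and 0.47. At an equal median over the table, which takes out a shift shared by the selected RNAs, both are within 1 standard error of 0 at 0 h and at 2 h.

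Within the P23 IPs, the values at 2 h overlapped those at 0 h for both mRNAs, while 7 RNAs of the table (13.5%) lay higher in every library of 2 h and 21 (40.4%) lower. The log2 ratio of 2 h over 0 h was 0.16 for Ptges3 (standard error 0.17, adjusted p = 0.44 from edgeR) and 0.13 for Pla2g12a (standard error 0.15, adjusted p = 0.46 from edgeR) on the authors' size factors. Over the table, 6 RNAs (11.5%) were called higher at 2 h and 21 (40.4%) lower, with a median of -0.32. With the pairs summed to 1 library, the values were 0.08 and 0.09 (adjusted p = 0.81 and 0.73 from edgeR). With libraries scaled by TMM to the RNAs of the table, both mRNAs passed the test, at 0.49 for Ptges3 (adjusted p = 0.00074 from edgeR) and 0.43 for Pla2g12a (adjusted p = 0.0055 from edgeR), among 14 RNAs (26.9%) called higher and 15 (28.8%) called lower on that scale. At an equal median over the table both also passed with all libraries, at 0.38 and 0.33 (adjusted p = 0.023 and 0.047 from edgeR). With the pairs summed as well, the values were 0.55 and 0.52 with TMM (adjusted p = 0.0057 and 0.0047 from edgeR). At an equal median with the pairs summed they were 0.35 and 0.34 (adjusted p = 0.13 and 0.096 from edgeR), so neither mRNA passed there. The call in the P23 IPs thus depended on the scale, and at an equal median also on summing the pairs. Both scales re-centre the libraries on RNAs that were chosen for being higher with P23 at 0 h. The table median of -0.32 on the authors' size factors became -0.02 with TMM. The part of that selection in the median and in the calls was not tested.

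In the LUC IPs, both times also overlapped for both mRNAs, while 12 RNAs (23.1%) lay higher in every library of 2 h and 15 (28.8%) lower. The log2 ratio was 0.12 for Ptges3 (standard error 0.20, adjusted p = 0.70 from edgeR) and 0.19 for Pla2g12a (standard error 0.19, adjusted p = 0.51 from edgeR). With TMM over the table the ratios were 0.25 and 0.31 (adjusted p = 0.17 from edgeR for both), in the same direction as in the P23 IPs. Summing the pairs left the ratios on the authors' size factors at 0.12 and 0.19. Over the table, 8 RNAs (15.4%) were called higher and 6 (11.5%) lower with LUC. Pla2g12a and Ptges3 ranked 17 and 18 of 52 by this ratio.

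The input RNA gives the level before IP, with 1 library per time and therefore no replicate check. Ptges3 had 156.7 normalized counts at 0 h and 172.1 at 2 h (raw counts of 956 and 973), a log2 ratio of 0.14 (exact 95% Clopper-Pearson interval 0.0055 to 0.27). Pla2g12a had 89.3 and 100.5 normalized counts (raw counts of 545 and 568), a log2 ratio of 0.17 (interval -0.0022 to 0.34). Both mRNAs thus stood nearly level between the inputs, while the LPS-induced Pim1 had a log2 ratio of 4.45 (interval 4.20 to 4.70). At an equal median over the table, the input log2 ratios of Ptges3 and Pla2g12a were 0.21 and 0.24. The median of the 51 RNAs with counts in both inputs was 0.01. These intervals cover counting error only.

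Per kilobase of the listed transcript, input levels were 80.2 for Ptges3 and 57.2 for Pla2g12a at 0 h, and 88.1 and 64.4 at 2 h (normalized counts per kb). In the P23 IPs, Ptges3 was at 272 ± 57.6 at 0 h and 285 ± 16.2 at 2 h, and Pla2g12a was at 71.4 ± 1.8 and 74.7 ± 11.7 (SD, n = 2 each, normalized counts per kb). Ptges3 was therefore the more abundant mRNA per length in input and IPs alike, within the limits set by its pseudogene copies.

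Relative to the inputs, Ptges3 was recovered at a higher level than Pla2g12a with either antibody. Ptges3 was above the input of the same time by a factor of 3.39 with P23 and 2.33 with LUC at 0 h, and of 3.23 and 2.29 at 2 h. Pla2g12a was at 1.25 times the input with P23 and 0.869 times with LUC at 0 h, and at 1.16 and 0.883 times at 2 h. On the log2 scale, the SD between IP samples (n = 2 or 3) was between 0.04 and 0.33. By IP over input, Ptges3 ranked 23 with P23 and 15 with LUC among 52 RNAs at 0 h, and 17 and 18 among 51 at 2 h. Pla2g12a ranked 47 and 41 at 0 h, and 41 and 44 at 2 h, near the lower end of the table each time. With an equal median over the table, log2 values of Pla2g12a with P23 turned from 0.32 to -0.72 at 0 h and from 0.21 to -0.64 at 2 h, while those of Ptges3 stayed above 0 in the 4 IP groups. The factors of Ptges3 over input then became 1.63 with P23 and 1.66 with LUC at 0 h, and 1.79 and 1.66 at 2 h. The antibodies no longer differed at 0 h beyond the spread between IP samples. That scale takes out a shift shared by the RNAs of the table, which were chosen on P23 over LUC at 0 h.

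**Figure D4:**
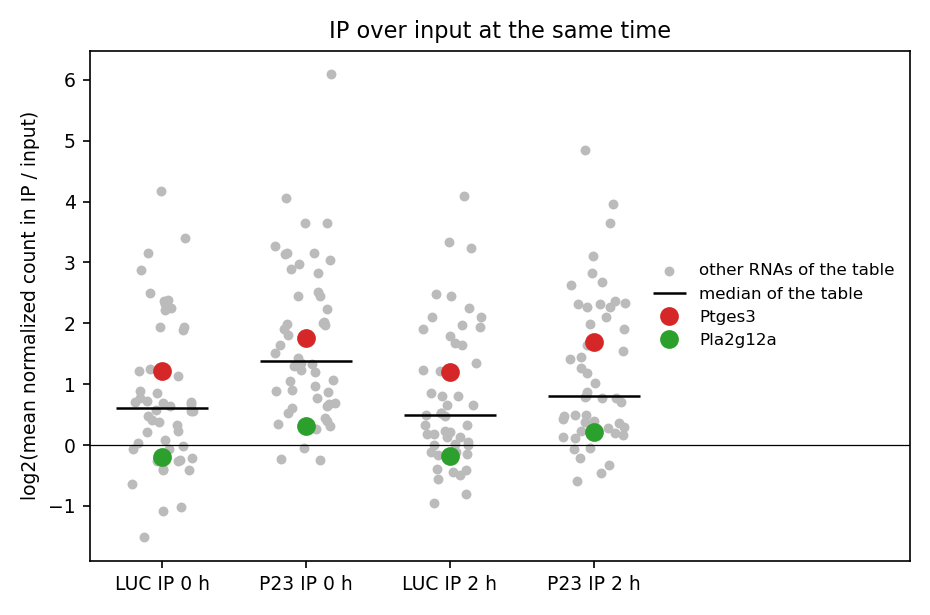
Log2 ratio of the mean normalized count in each IP group over the input of the same time (vertical axis) for every RNA of the table with counts in both (grey), with the table median (black line), Ptges3 (red) and Pla2g12a (green). Ptges3 lies above the median in the 4 groups and Pla2g12a below it; the side of 0 on which Pla2g12a lies with P23 turns when libraries are set to an equal median over the table.

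The ratio of both raw counts inside a library needs no size factor. Ptges3 over Pla2g12a was 5.38, 4.03 and 4.23 in untreated P23 IPs and 5, 4.57 and 4.49 in untreated LUC IPs. At 2 h it was 5.15, 4.45 and 4.49 in the P23 IPs and 3.74 and 5.42 in the LUC IPs. The groups overlapped at both times. In the inputs the ratio was 1.75 (exact 95% Clopper-Pearson interval 1.58 to 1.95) and 1.71 (interval 1.54 to 1.90), below each of the 11 IP libraries with either antibody.

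On the log2 scale over all libraries, the mean ratio with P23 minus that with LUC was -0.05 at 0 h (2-sided exact permutation test, p = 0.70, adjusted p = 1.00 over 2 tests) and 0.06 at 2 h (p = 1.00 in the exact permutation test, adjusted p = 1.00). With each near-identical pair counted as 1 sample, the differences were 0.0093 and 0.09 (p = 1.00 in the exact permutation test for both). With 3 against 3 or 3 against 2 libraries this test cannot go below 0.10, so it could not have passed a threshold of 0.05. With the pairs counted once, 2 stand against 2 at 2 h, and the test cannot go below 0.33 there. No difference between antibodies in the proportion of the mRNAs was detectable, and with the pairs counted once the SD of the log2 ratio was 0.27 with P23 and 0.08 with LUC at 0 h, and 0.15 and 0.38 at 2 h.

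**Figure D5:**
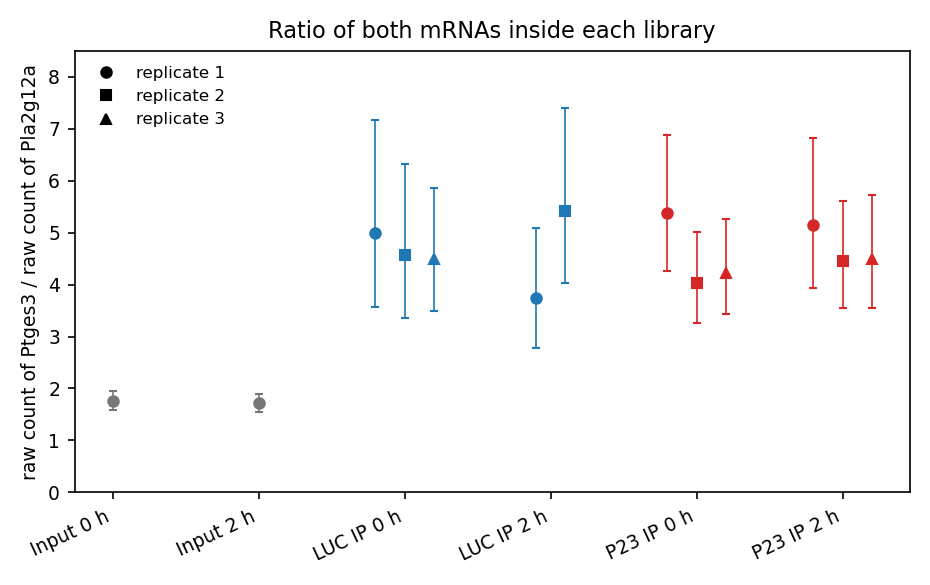
Raw count of Ptges3 divided by that of Pla2g12a (vertical axis, from 0) in each of the 13 libraries by group, with 95% Clopper-Pearson intervals for counting error. The 11 IP libraries lie between 3.74 and 5.42 with both antibodies, and the inputs lie at 1.75 and 1.71.

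Across the 11 IP libraries, the RNAs whose normalized counts (log2 after adding 0.5) ran most like Ptges3 were Ciao2a (Pearson r = 0.94, Spearman rho = 0.89), a factor of cytosolic iron-sulfur assembly, Ppia (r = 0.90, rho = 0.85) and Fhl3 (r = 0.87, rho = 0.83), a LIM domain protein. Pla2g12a ranked 5 for Ptges3 (r = 0.86, rho = 0.89). For Pla2g12a the closest were Paf1 (r = 0.88, rho = 0.85), a subunit of the PAF1 elongation complex, Kif15 (r = 0.87, rho = 0.92), a kinesin, and Fhl3 (r = 0.86, rho = 0.85). The median r over the other RNAs of the table was 0.61 for Ptges3 and 0.62 for Pla2g12a. The points share the antibody groups, the size factors and the selection of the table, so these values only describe likeness.

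Of the wider pathway, 2 of 41 listed prostaglandin and phospholipase A2 genes are in the table, namely these 2, and 1 of 21 listed HSP90 chaperone genes, which is Ptges3. The cyclooxygenases, the other PGE synthases and the cytosolic phospholipases A2 were on the list and are not among the RNAs analysed here. By the annotation terms in the table, Ptges3 was the RNA with terms for prostaglandins, telomerase and unfolded protein binding, and Pla2g12a the RNA with terms for phospholipase A2 activity, calcium ion binding and phospholipid metabolism. Whether other mRNAs of the pathway were bound was not analysed here.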

How the data were processed

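RNA co-precipitated with P23 or a LUC control antibody, and input RNA, was sequenced in 13 libraries of 1 deposited table. The authors made the raw counts from read pairs trimmed with Trimmomatic 0.33, aligned to GRCm38 by TopHat2 2.0.14, with HTSeq 0.6.1 assigning unique pairs to genes. The log2 values, variance-stabilized, were deposited beside them. Deposited columns of the authors' log2 fold changes, p-values and FDR were not used, and 0 columns of samples were left unmapped. Size factors were recovered from the variance-stabilized values.

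The contrasts came from the quasi-likelihood test of edgeR 4.0.16 under R 4.3.3 (4 group means, 11 IP libraries, Benjamini-Hochberg over 52 RNAs, called at 0.05 or less), which was tested on simulated data. Alternatives were DESeq2 1.42.0, limma 3.58.1, other scales, a filter at a mean of 20, the replicate block and libraries left out. Summing near-identical libraries, alone or with another scale, was added after the data were seen. Copies of the mRNAs were sought with BLAST+ 2.17.0, and permutation tests used scipy 1.17.1. Gene positions are of GENCODE, and transcripts and 3′UTRs of RefSeq (GRCm38.p6).

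Both mRNAs, the lists and the rule for other named genes (the 3 most similar RNAs and the rank neighbours of each) were chosen with earlier results of these data known. The paper states a lower bound on read pairs that holds for all libraries. The depth of each single library is known only as counts over the 52 RNAs and as size factors. These factors ran from 0.461 to 1.02 in the IPs, and precision rests on raw counts of 41 to 461. The check of macrophage markers is not reported here.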

Additional observations from a re-analysis of the deposited data

How the results depend on the processing

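Of 164 fitted log2 fold changes of both mRNAs under an alternative setting, 132 kept their direction and their side of the threshold, 21 turned in sign and 11 crossed the threshold. Sizes could still move, as for Pla2g12a at 2 h, which was 0.47 on the authors' size factors and 0.00010 with TMM. The table median of P23 over LUC at 0 h was 0.66 on the authors' size factors, 0.12 at an equal median and 0.01 with TMM over the 52 RNAs. At 0 h, Ptges3 turned to -0.066 at an equal median and -0.18 with TMM, and Pla2g12a to -0.019 and -0.13. With near-identical libraries summed as well, these were -0.050 and -0.24 for Ptges3, and -0.055 and -0.22 for Pla2g12a. For P23 IP at 2 h over 0 h, Ptges3 passed at 0.38 and 0.49 and Pla2g12a at 0.33 and 0.43 on those scales, and with near-identical libraries summed at 0.55 and 0.52 with TMM alone. The change of Pla2g12a became 0.076 and 0.13, or 0.082 and 0.22 with near-identical libraries summed, and that of Ptges3 0.17 and 0.24. IP over input at an equal median was 0.71 (P23, 0 h), 0.74 (LUC, 0 h), 0.84 (P23, 2 h) and 0.73 (LUC, 2 h) for Ptges3, and -0.72, -0.68, -0.64 and -0.64 for Pla2g12a in the same order. Both scales take out a shift shared by the 52 RNAs, which were chosen for being higher with P23 at 0 h. How much of each move comes from that was not tested. With only the compared groups, Ptges3 passed at 2 h (0.52). With near-identical libraries as 1, the change of Ptges3 was -0.041 and the difference in the ratio of both mRNAs at 0 h was 0.0093, and with medians that at 2 h was -0.0031. These are small against their errors.

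Leaving out 1 library gave log2 values at 0 h of 0.32 to 0.62 for Ptges3 and 0.43 to 0.61 for Pla2g12a, and at 2 h of 0.49 to 0.55 and 0.23 to 0.70. The change ran from -0.11 to 0.20 and from -0.30 to 0.18, LUC IP at 2 h over 0 h from -0.00065 to 0.27 and from -0.044 to 0.43, and the ratio of both mRNAs from -0.18 to 0.027 at 0 h and from -0.21 to 0.33 at 2 h.

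Over the table, the 52 RNAs called at 0 h became 2 with TMM and 3 at an equal median, or 2 on either scale with near-identical libraries summed. The 4 called higher at 2 h became 2 on either scale, also with near-identical libraries summed, 14 with only the compared groups, 8 with DESeq2 and 2 with near-identical libraries as 1. Without P23 IP 2 h replicate 1 they were 13, and 2 without P23 IP 2 h replicate 2, P23 IP 2 h replicate 3 or LUC IP 2 h replicate 1, which also took the 1 called lower to 0. In the P23 IPs, the 6 called higher at 2 h over 0 h became 14 with TMM (also with near-identical libraries summed, when the 21 called lower became 10), 10 at an equal median and 3 with near-identical libraries as 1, without P23 IP 0 h replicate 2 or without P23 IP 0 h replicate 3. In the LUC IPs, the 8 called higher became 5 without LUC IP 2 h replicate 2, and the 6 called lower became 11 without LUC IP 0 h replicate 2, 3 without LUC IP 2 h replicate 1 and 1 without LUC IP 2 h replicate 2.

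With the replicate number as a block, log2 fold changes at 0 h were 0.47 for Ptges3 (adjusted p = 0.030 from edgeR) and 0.53 for Pla2g12a (adjusted p = 0.013 from edgeR), at 2 h 0.54 and 0.46 (adjusted p = 0.14 from edgeR for both), and the block changed no call of either mRNA. No pairing by number was visible, since 3 of 15 same-numbered pairs correlated above 0.1 (r from -0.41 to 0.45). The correlated values were deviations from means of 2 or 3 libraries, so this check cannot decide whether the samples were paired. Raw counts of Pla2g12a as low as 41 limit its precision.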
